A study of Mus musculus with 15 samples.

Results

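The 36 genes of cholesterol synthesis and sterol control, chosen by their known place in the pathway and with earlier results of these data in view, were followed through mouse fibroblasts given a growth factor and inhibitors of mTORC1. They make up 36 of the 55266 genes in the deposited counts, and 26 of them had enough reads to be among the 10603 genes tested.

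The series asks what mTORC1, a growth-controlling kinase complex, does to transcription, and how much of that is due to the mTORC1 in the nucleus. It used NIH3T3, an established line of mouse embryonic fibroblasts, made into stable lines in which doxycycline induces a fusion to histone H2A. Cells were starved before treatment, and there were 3 libraries in each of 5 groups. The first group was H2A-TerminaTOR cells, whose fusion is a genetically encoded mTORC1 inhibitor held in the nucleus, given cycloheximide and PDGF. The other groups were H2A-mCherry control cells given cycloheximide and PDGF, given rapamycin and PDGF, given PDGF alone, or left without PDGF. PDGF is a growth factor for fibroblasts, rapamycin inhibits mTORC1 wherever it is in the cell, and cycloheximide blocks translation. TerminaTOR cells were compared with control cells under cycloheximide only, so TerminaTOR effects that need protein made after its addition could not be seen. Effects that arose before cycloheximide was added remain part of the comparison. Each construct is represented by a stable line, so differences between the lines and effects of the construct cannot be told apart. The sources used here give no doses, times or levels of the fusion proteins. Nothing in the labels tells whether replicate libraries are separate cultures; p-values therefore measure only the spread between these samples, and that spread may be technical.

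Cholesterol is built from acetyl-CoA through mevalonate, the isoprenoid diphosphates and squalene, which is closed to lanosterol and then trimmed to cholesterol in the endoplasmic reticulum. The genes of most of these steps are turned on by SREBP2, a transcription factor made as a membrane protein that the escort SCAP carries to the Golgi for cleavage when membrane sterol is low, and that the INSIG proteins hold back when it is high. The nuclear receptor LXR responds to oxysterols in the other direction and turns on cholesterol export. mTORC1 is known to promote SREBP activity in growing cells.

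Library totals lay between 3466202 and 6777780 counts. RNA came from whole cultures, so a change in all cells and one in some of them cannot be told apart. Mitochondrial genes held 6.32 to 6.63% of counts in TerminaTOR cells and 6.27 to 6.64% in control cells with cycloheximide and PDGF. They held 9.84 to 11.0% with rapamycin and PDGF, 8.69 to 9.29% with PDGF and 11.1 to 12.2% without PDGF, and the part of this shift in the results was not tested. The label of the cells was checked with 8 fibroblast markers, of which 7, among them *Col1a1*, *Vim* and *Pdgfra*, had a mean of at least 10 reads per library. Of 6 macrophage markers *Cd14* and *Lyz2* did so, and none of 4 epithelial, 3 endothelial and 3 hepatocyte markers did, with *Epcam* and *Krt18* at 0 in every library. The markers moved with the groups. The summed level of the fibroblast markers was 8615 to 9143 CPM in TerminaTOR cells, 7568 to 7913 CPM in control cells with cycloheximide and PDGF, 4639 to 5024 CPM with rapamycin and PDGF, 7308 to 7635 CPM with PDGF and 8424 to 8515 CPM without PDGF. That of the macrophage markers was 17.5 to 23.2 CPM in TerminaTOR cells, 17.8 to 26.1 CPM in control cells with cycloheximide and PDGF, 16.9 to 18.8 CPM with rapamycin and PDGF, 16.0 to 18.8 CPM with PDGF and 6.72 to 11.3 CPM without PDGF, and the part of these shifts in the results was not tested.

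Reads were counted per transcript, and a read shared by several transcripts of a gene is not counted, so what is measured of a gene is its transcript-specific reads. Levels below are TMM-scaled CPM, counts per scaled library total, and they compare a gene between groups, never one gene with another. There were 10 members that had too few reads to be tested, between 0 and 97 over all 15 libraries. They were *Acat2* and *Mvk* and *Mvd* of the mevalonate arm, the squalene synthase gene *Fdft1*, *Tm7sf2*, *Ebp* and *Dhcr7* of the late steps, the LXR genes *Nr1h2* and *Nr1h3*, and the sterol exporter gene *Abcg1*. *Nr1h3* had no read in any library, which allows up to 3 reads over the series, for counting error only. Few reads need not mean little RNA. The coding forms *Nr1h3*-201, *Nr1h2*-201, *Fdft1*-201, *Tm7sf2*-201 and *Dhcr7*-201 have 0 exon bases that belong to them alone, so their reads could not be counted. This does not apply to *Ebp*-201 and *Abcg1*-201, which have 512 and 4237 exon bases of their own and had 0 and 4 reads in all. In 20 of the 26 tested members most reads came from a protein-coding transcript, and in 16 of them that transcript held at least 90% of the reads. In the other 6, *Hmgcs1*, *Fdps*, *Sqle*, *Lss*, *Msmo1* and *Mbtps1*, the transcript with most reads is annotated as one that retains an intron. Of their coding forms, *Hmgcs1*-201, *Sqle*-201, *Lss*-201 and *Mbtps1*-201 have 0 exon bases of their own, *Fdps*-201 has 68 and *Msmo1*-201 has 281. The values of these 6 thus follow what can be counted. They give neither the share of the forms nor the level of the spliced message.

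**Figure D1:**
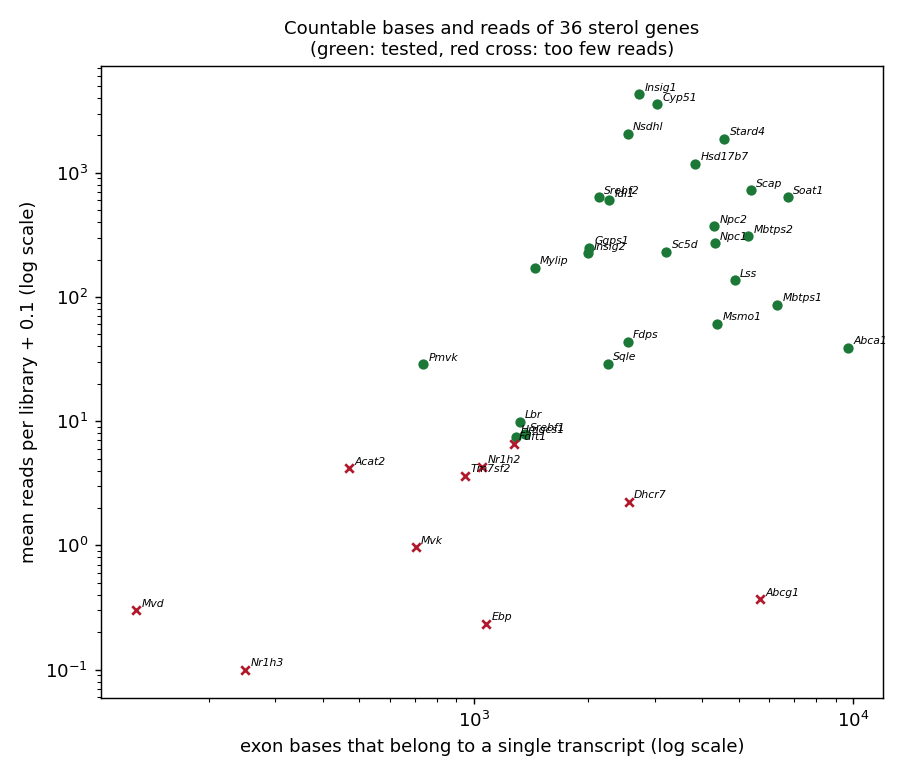
Mean reads per library, plus 0.1, against the number of exon bases that belong to a single transcript, for the 36 sterol genes, both on log scales. Green points are the 26 tested genes and red crosses the 10 that were not, which lie at the bottom of the plot with 0 to 97 reads in all.

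PDGF raised genes at several steps of synthesis, by 4.65-fold for *Msmo1* and 2.78-fold for *Idi1*, and with them *Insig1* (2.31-fold) and *Stard4* (2.08-fold), while *Abca1* and *Mylip* fell. The *Msmo1* value rests mostly on intron-retaining transcripts, which held 79.1% of its counted reads. Of the 26 members, 10 rose and 4 fell with PDGF, where 20.1% of all genes tested rose and 16.9% fell. Scaled by library size alone, which moved the median of all genes to -0.256, the counts with PDGF were 9 and 8. Adding rapamycin to PDGF lowered 13 members and raised 2, against 16.1% and 16.3% of all genes. Cycloheximide with PDGF raised 13 and lowered 5 relative to PDGF alone, against 21% and 19.6% of all genes. TerminaTOR cells had 3 members higher and 2 lower than control cells under cycloheximide, where 2.35% of all genes were higher and 2.57% lower. Without any 1 of these 6 libraries 1 or 2 members were called higher with TerminaTOR and 1 lower; without unstimulated replicate 2 the members lower with PDGF were 2, and without rapamycin replicate 2 those higher with rapamycin were 1. The calls are at an adjusted p under 0.05 (edgeR, quasi-likelihood F test, Benjamini-Hochberg over all 10603 genes), and the comparisons with PDGF share its libraries. The median log2 change of the 26 members was 0.40 with PDGF, -0.49 with rapamycin, 0.35 with cycloheximide and 0.0345 with TerminaTOR, and the median of all genes was within 0.0248 of 0 in each.

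**Figure D2:**
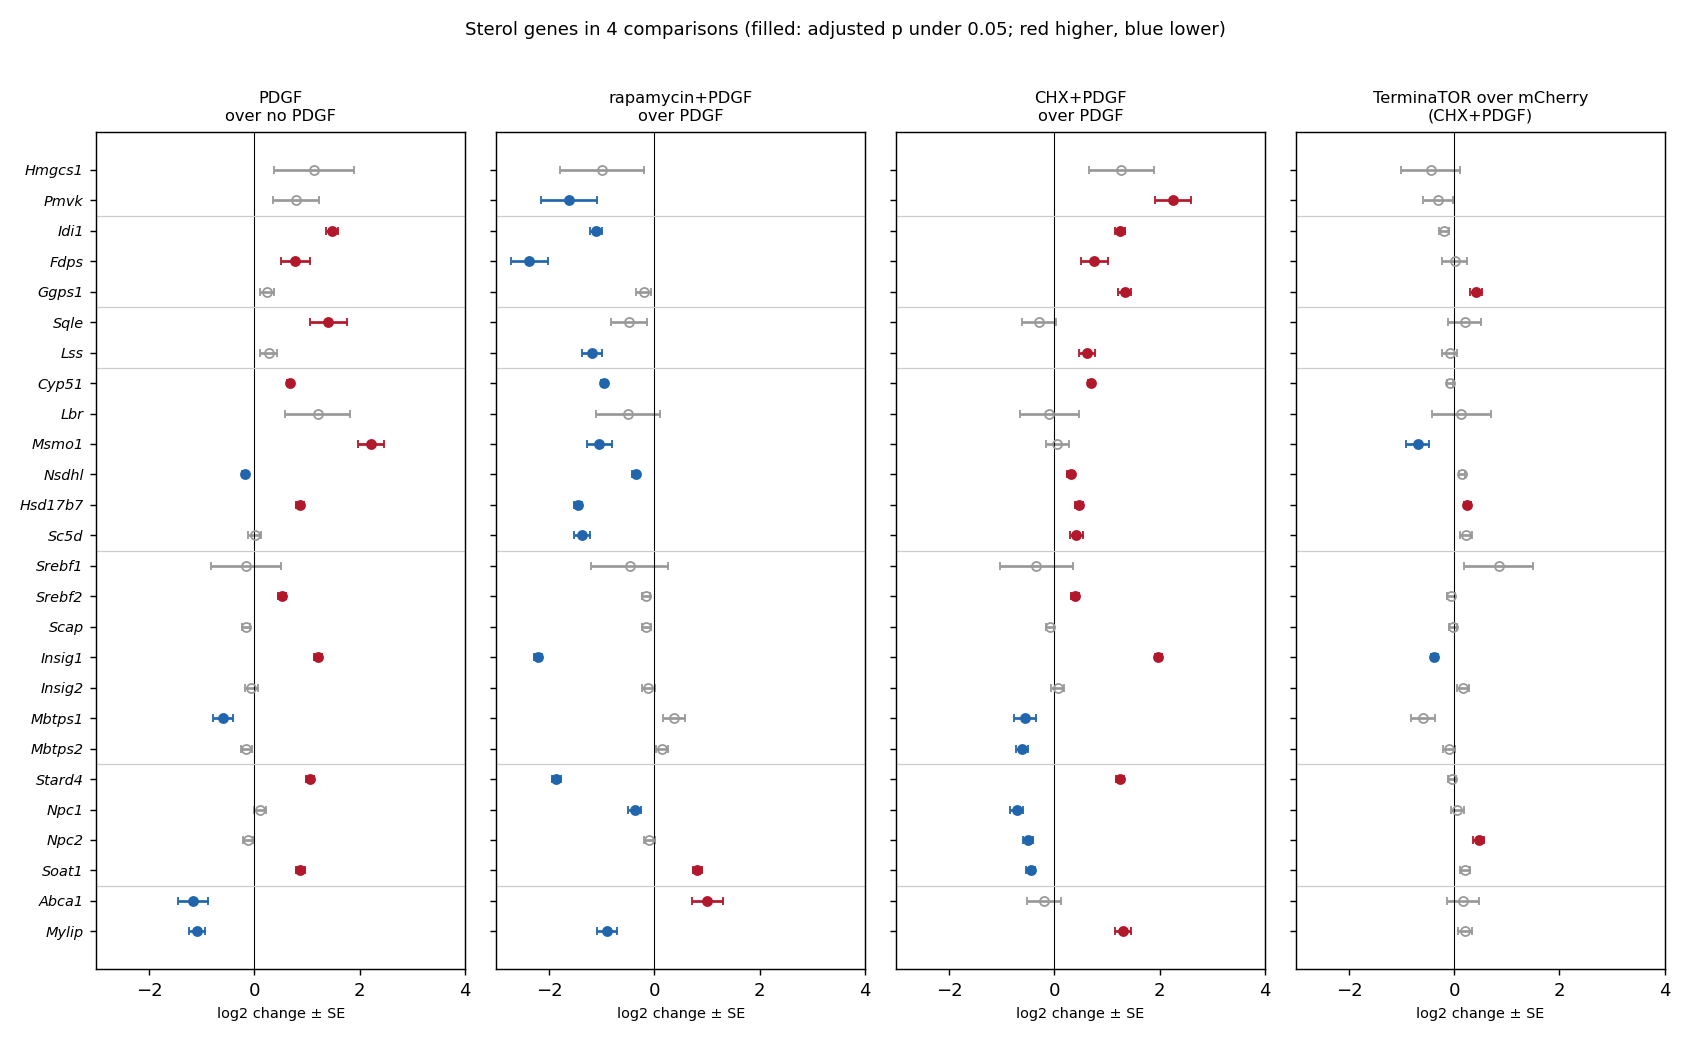
Log2 change with its SE for the 26 tested members, in pathway order with lines between the steps, in 4 comparisons. Filled points passed the test, red for higher and blue for lower: 10 and 4 with PDGF, 2 and 13 with rapamycin, 13 and 5 with cycloheximide, 3 and 2 with TerminaTOR.

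Among the early enzymes, *Idi1* and *Fdps* rose with PDGF and fell when rapamycin was added, and *Pmvk*, *Idi1*, *Fdps* and *Ggps1* were higher under cycloheximide. *Idi1* encodes the isomerase that makes the allylic building block of all isoprenoids. Its level was 208, 222 and 213 CPM in the 3 TerminaTOR libraries and 234, 235 and 266 CPM in control cells with cycloheximide and PDGF. It was 47.9, 47.4 and 48.7 CPM with rapamycin and PDGF, 94.5, 118 and 97.8 CPM with PDGF and 28.3, 46.0 and 37.8 CPM without PDGF. None of the 3 pairs of groups, PDGF and no PDGF, rapamycin and PDGF, or cycloheximide and PDGF, overlapped. The log2 change was 1.48 ± 0.11 SE for PDGF (edgeR adjusted p = 3.16e-18), -1.11 ± 0.11 for rapamycin (edgeR adjusted p = 5.78e-13) and 1.25 ± 0.094 for cycloheximide (edgeR adjusted p = 1.48e-17). TerminaTOR cells lay below control cells in all 3 libraries, but the difference of -0.20 ± 0.089 did not pass the test (edgeR adjusted p = 0.242, 95% interval -0.37 to -0.021). Cells with rapamycin and PDGF were called 1.29-fold above unstimulated cells (edgeR adjusted p = 0.00629), a call lost without replicate 1 of the unstimulated group (edgeR adjusted p = 0.245), and under library-size scaling the change was -0.0065.

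*Fdps* encodes farnesyl diphosphate synthase, the last enzyme before the route divides towards sterols and prenyl groups. Nearly all its counted reads, 99.4%, came from intron-retaining transcripts. Of these *Fdps*-205 has 2127 exon bases of its own, against 68 and 48 for the coding *Fdps*-201 and *Fdps*-202. The share thus follows what can be counted. *Fdps* had 1.67, 2.46 and 1.19 CPM with rapamycin and PDGF, against 9.36, 8.01 and 9.74 CPM with PDGF and 5.45, 6.33 and 4.11 CPM without. The rapamycin values lay below all others, and the fall of 2.37 ± 0.36 SE on the log2 scale was the largest among the members (edgeR adjusted p = 9.63e-08). With rapamycin and PDGF it was also below unstimulated cells, by 1.59 ± 0.38 on the log2 scale (edgeR adjusted p = 0.000238). The rise with PDGF (0.78 ± 0.28, edgeR adjusted p = 0.021) rested on few reads and was lost without replicate 3 of the unstimulated group or without PDGF replicate 1 or 3, with adjusted p between 0.0515 and 0.104. It was also lost under library-size scaling, without a filter on low counts and on its most abundant transcript alone, with adjusted p between 0.0556 and 0.121. Under cycloheximide it had 12.5, 15.5 and 19.2 CPM in TerminaTOR cells and 16.1, 14.9 and 15.2 CPM in control cells, which overlapped and differed by 0.0083 ± 0.23 (95% interval -0.45 to 0.47). Its rise with cycloheximide over PDGF, 0.76 ± 0.25 (edgeR adjusted p = 0.0102), was lost without PDGF replicate 2 (edgeR adjusted p = 0.0584).

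*Ggps1*, whose product makes the geranylgeranyl diphosphate that anchors small GTPases in membranes, was called neither with PDGF nor with rapamycin; a difference from *Idi1* or *Fdps* was not tested. It showed 31.2, 24.6 and 24.9 CPM with rapamycin and PDGF, 30.02, 34.6 and 28.4 CPM with PDGF and 28.3, 24.4 and 25.2 CPM without PDGF. No call was made among those 3 groups, and the log2 change with PDGF was 0.25 ± 0.13 (95% interval -0.017 to 0.51) and with rapamycin -0.20 ± 0.14 (95% interval -0.48 to 0.073). Under cycloheximide its level was 107, 102 and 103 CPM in TerminaTOR cells and 79.6, 75.9 and 78.7 CPM in control cells, without overlap. Cycloheximide raised it 2.53-fold over PDGF alone (edgeR adjusted p = 5e-15), and in TerminaTOR cells it was 1.33-fold higher still (log2 change 0.41 ± 0.11, edgeR adjusted p = 0.0116). That TerminaTOR call was lost without cycloheximide control replicate 2 or 3 or without TerminaTOR replicate 1, with adjusted p between 0.0543 and 0.0978.

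Of the mevalonate arm only *Hmgcs1* and *Pmvk* had reads enough. *Pmvk*, phosphomevalonate kinase, had 12.0, 11.6 and 9.15 CPM in TerminaTOR cells and 10.8, 13.6 and 16.7 CPM in control cells with cycloheximide and PDGF. It had 1.39, 0.308 and 0.950 CPM with rapamycin and PDGF, 3.305, 2.33 and 2.90 CPM with PDGF and 0.727, 1.75 and 2.43 CPM without PDGF. Every library with cycloheximide lay above every one without. The rise over PDGF alone was 2.26 ± 0.34 on the log2 scale (edgeR adjusted p = 6.59e-08), and the fall with rapamycin, 1.62 ± 0.53 (edgeR adjusted p = 0.0127), was lost without rapamycin replicate 2 (edgeR adjusted p = 0.0788). *Hmgcs1*, the cytosolic HMG-CoA synthase gene, averaged 7.4 reads per library and passed the test only for cycloheximide with PDGF against no PDGF, at 2.40 ± 0.67 on the log2 scale (edgeR adjusted p = 0.00198). Its changes with PDGF, 1.13 ± 0.75, and with rapamycin, -0.99 ± 0.79, were not resolved at this depth.

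*Sqle* encodes squalene epoxidase and *Lss* the lanosterol synthase that closes the rings. *Sqle* was called with PDGF and not with rapamycin, and *Lss* the other way round, a difference between the genes that was not tested. *Sqle* had 9.09, 7.49 and 8.91 CPM with PDGF and 3.09, 4.80 and 1.87 CPM without, groups that did not overlap, and rose by 1.40 ± 0.35 SE on the log2 scale (edgeR adjusted p = 0.000822). With rapamycin and PDGF it had 6.96, 8.30 and 3.33 CPM, which overlapped the PDGF libraries (log2 change -0.48 ± 0.34, edgeR adjusted p = 0.298, 95% interval -1.15 to 0.18). It had 9.21, 5.90 and 8.85 CPM in TerminaTOR cells and 4.14, 8.32 and 8.45 CPM in control cells under cycloheximide, which also overlapped. The counted reads of *Lss* came almost wholly from intron-retaining transcripts, and its coding form *Lss*-201 has 0 exon bases of its own. *Lss* had 9.75, 14.5 and 12.8 CPM with rapamycin and PDGF, 31.7, 25.6 and 26.9 CPM with PDGF and 22.5, 20.1 and 26.6 CPM without. PDGF made no called difference to it (0.28 ± 0.16, 95% interval -0.041 to 0.59), and rapamycin lowered it 2.27-fold relative to PDGF (edgeR adjusted p = 2.07e-07) and 1.87-fold relative to unstimulated cells (edgeR adjusted p = 2.14e-05). With cycloheximide it had 40.1, 45.8 and 35.7 CPM in TerminaTOR cells and 39.5, 48.7 and 42.1 CPM in control cells, and the control cells were 1.55-fold above PDGF alone (edgeR adjusted p = 0.000587).

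In the late steps, from lanosterol to cholesterol, 5 of 6 tested enzymes fell with rapamycin, where 16.1% of all genes did. With PDGF 3 of the 6 rose and 1 fell, where 20.1% of all genes rose and 16.9% fell, so that the 1 lower enzyme is near the share of all genes. *Cyp51* encodes the lanosterol 14-alpha demethylase and is one of the best counted members. It had 361, 398 and 371 CPM with rapamycin and PDGF, 705, 735 and 754 CPM with PDGF and 435, 498 and 446 CPM without. The groups did not overlap, and with rapamycin the level lay below even unstimulated cells (-0.29 ± 0.059 SE on the log2 scale, edgeR adjusted p = 2.71e-05). The change with PDGF was 0.67 ± 0.058 (edgeR adjusted p = 2.49e-16) and with rapamycin -0.96 ± 0.059 (edgeR adjusted p = 4.99e-23). Under cycloheximide it had 1149.8, 1109 and 1085 CPM in TerminaTOR cells and 1179, 1196 and 1173 CPM in control cells. The -0.085 ± 0.056 change with TerminaTOR did not pass the test, and its 95% interval, -0.19 to 0.025, lay above the rapamycin change.

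*Hsd17b7* encodes the 3-keto-reductase that completes removal of the methyl groups at carbon 4. It had 416, 444 and 411 CPM in TerminaTOR cells and 335, 349 and 385 CPM in control cells under cycloheximide, 94.7, 109 and 78.9 CPM with rapamycin and PDGF, 246, 264 and 259 CPM with PDGF and 132, 143 and 149 CPM without PDGF. All 5 groups were separate. It was 2.74-fold lower with rapamycin than with PDGF alone (edgeR adjusted p = 6.84e-25) and 1.82-fold higher with PDGF than without (edgeR adjusted p = 1.21e-15). The TerminaTOR cells were 1.19-fold above their controls (log2 change 0.25 ± 0.072, edgeR adjusted p = 0.0257). That call was lost without any 1 of the TerminaTOR libraries or without cycloheximide control replicate 1 or 2, with adjusted p between 0.0552 and 0.212, and without a filter on low counts (edgeR adjusted p = 0.0677).

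*Sc5d*, the lathosterol oxidase that sets the double bond at carbon 5, was not called with PDGF. It had 44.9, 48.6 and 46.8 CPM with PDGF and 47.4, 40.8 and 51.4 CPM without, a log2 difference of 0.0040 ± 0.13 (95% interval -0.25 to 0.26). Rapamycin with PDGF took it to 18.7, 12.9 and 21.6 CPM, 2.60-fold under PDGF alone (edgeR adjusted p = 5.4e-12) and 2.59-fold under unstimulated cells (edgeR adjusted p = 1.02e-12). Its level was 68.5, 80.0 and 70.5 CPM in TerminaTOR cells and 65.4, 56.7 and 65.1 CPM in control cells under cycloheximide (log2 change 0.22 ± 0.12, edgeR adjusted p = 0.357). The control cells with cycloheximide were 1.34-fold above PDGF alone (edgeR adjusted p = 0.0057), a call lost under library-size scaling (edgeR adjusted p = 0.0717).

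*Msmo1*, the methylsterol monooxygenase that starts demethylation at carbon 4, gave the largest rise of any member with PDGF. It had 16.0, 19.6 and 24.6 CPM with PDGF and 3.82, 3.71 and 5.42 CPM without, 4.65-fold higher (log2 change 2.22 ± 0.25 SE, edgeR adjusted p = 1.92e-11). With rapamycin and PDGF it had 13.1, 8.30 and 8.08 CPM, lower than with PDGF (edgeR adjusted p = 0.000274) and above unstimulated cells by 1.17 ± 0.28 (edgeR adjusted p = 0.000271). Intron-retaining transcripts held 79.1% of its counted reads, and on its most abundant transcript alone the difference between rapamycin with PDGF and no PDGF was 0.30 (edgeR adjusted p = 0.559). In TerminaTOR cells it had 15.1, 11.01 and 12.5 CPM, against 20.1, 25.2 and 18.2 CPM in control cells under cycloheximide, without overlap. That fall of 0.70 ± 0.22 on the log2 scale passed the test by little (edgeR adjusted p = 0.0472) and was lost when any 1 of the 6 libraries was left out, with adjusted p between 0.0552 and 0.252. *Nsdhl*, the dehydrogenase that acts next, had 559 ± 19.5 CPM in TerminaTOR cells and 506 ± 17.3 CPM in control cells under cycloheximide. It had 319 ± 16.9 CPM with rapamycin and PDGF, 407 ± 26.0 CPM with PDGF and 462 ± 16.7 CPM without (SD, n = 3 each). It was called higher with cycloheximide than with PDGF alone and was not called with TerminaTOR. Its fall with rapamycin, -0.35 ± 0.063, passed the test (edgeR adjusted p = 4.39e-06), and its fall with PDGF, -0.18 ± 0.062 (edgeR adjusted p = 0.0161), was lost without PDGF replicate 1 or unstimulated replicate 2. *Lbr*, a nuclear envelope protein with sterol reductase activity, averaged 9.8 reads per library and was called in none of these comparisons, but without unstimulated replicate 3 its change with PDGF was 2.70 (edgeR adjusted p = 0.00488).

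**Figure D3:**
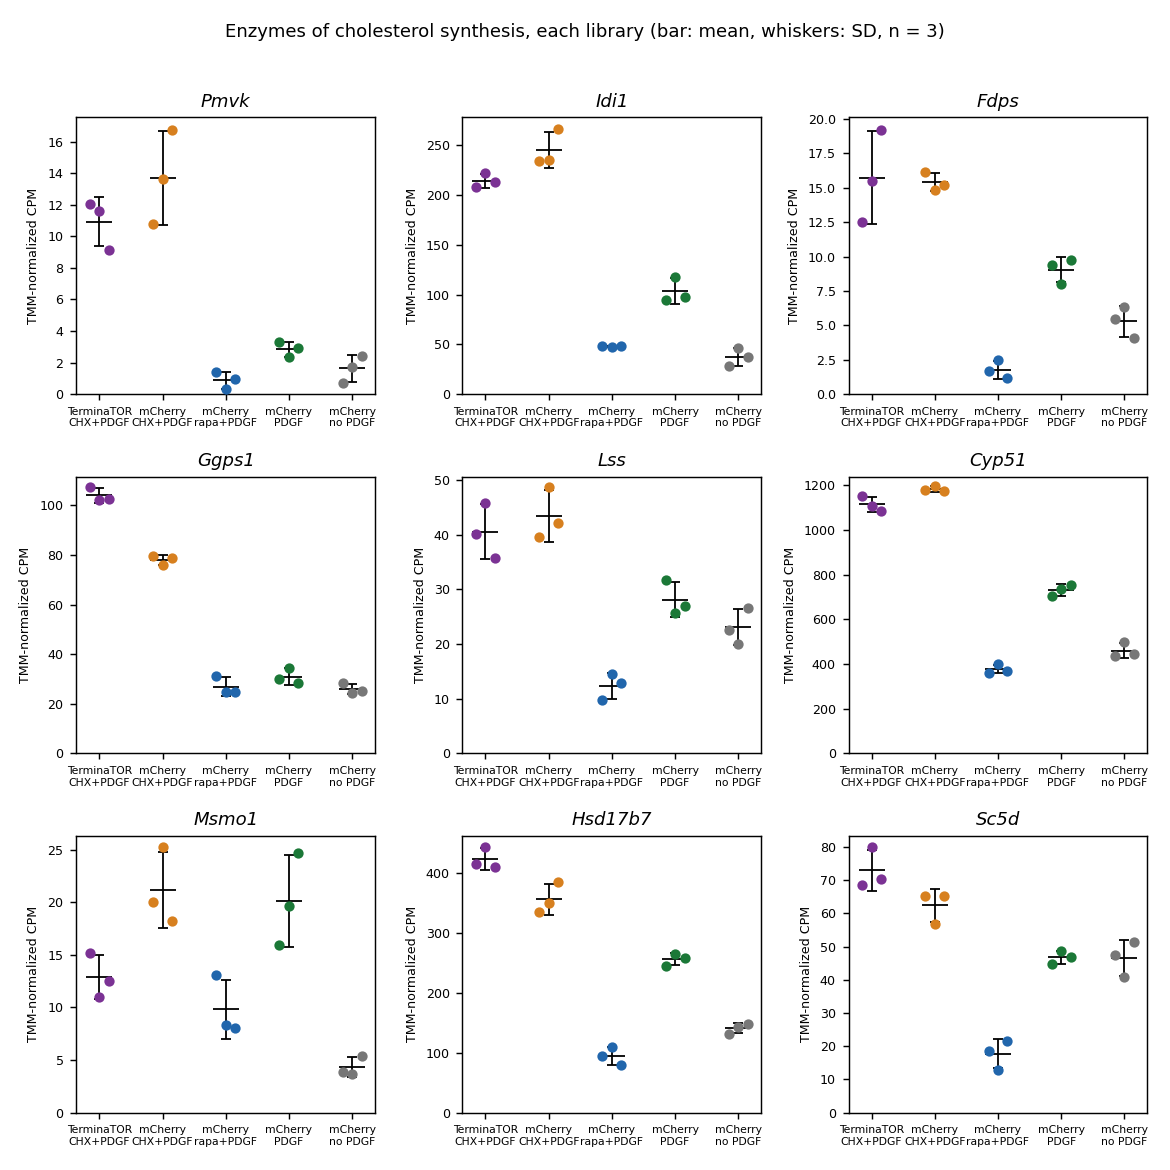
TMM-normalized CPM of 9 enzyme genes in each library (points), with the group mean and SD (n = 3), on linear axes from 0. In *Fdps*, *Lss*, *Cyp51*, *Hsd17b7* and *Sc5d* the 3 libraries with rapamycin and PDGF are the lowest, and the 6 libraries with cycloheximide are the highest in all panels but *Msmo1*.

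In the control machinery *Insig1* changed in all 4 main comparisons and *Srebf2* rose with PDGF and with cycloheximide, while *Srebf1*, *Scap* and *Insig2* were called in none of the 4. *Insig1*, which encodes the sterol-dependent retention protein and is itself an SREBP target, lies on GRCm38 chromosome 5 (*Insig1* gene, positions 28071363 to 28078662). Its level was 1639, 1607 and 1537 CPM in TerminaTOR cells, against 2096, 2056 and 2068 CPM in control cells under cycloheximide. It was 135, 103 and 103 CPM with rapamycin and PDGF, 484, 545 and 555 CPM with PDGF and 216, 249 and 220.3 CPM without PDGF. No library of any group reached into another group. PDGF raised it 2.31-fold (log2 change 1.21 ± 0.068 SE, edgeR adjusted p = 1.09e-21). Rapamycin with PDGF brought it 4.64-fold below PDGF alone (edgeR adjusted p = 1.89e-31) and 2.00-fold below unstimulated cells (edgeR adjusted p = 3.78e-17). Cycloheximide with PDGF brought it 3.93-fold above PDGF alone (edgeR adjusted p = 1.89e-31). In TerminaTOR cells it was 1.30-fold lower, by 0.38 ± 0.063 on the log2 scale (edgeR adjusted p = 3.44e-05), and this call held when each library in turn was left out.

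*Insig2* encodes the second retention protein, which is not under SREBP control. It had 58.2, 52.1 and 58.0 CPM in TerminaTOR cells, 49.4, 44.1 and 55.7 CPM in control cells with cycloheximide and PDGF, 45.7, 46.8 and 39.9 CPM with rapamycin and PDGF, 44.9, 50.1 and 47.6 CPM with PDGF and 47.8, 50.8 and 49.9 CPM without PDGF. The groups overlapped in each of the 4 main comparisons, and none was called. Its 95% interval was -0.30 to 0.18 on the log2 scale for PDGF and -0.36 to 0.14 for rapamycin. Under library-size scaling it fell with PDGF, by 0.31 (edgeR adjusted p = 0.0382).

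*Srebf2*, the SREBP2 gene, had 166, 178 and 169 CPM in TerminaTOR cells and 177, 189 and 169.8 CPM in control cells under cycloheximide, 109, 125 and 130.2 CPM with rapamycin and PDGF, 129, 136 and 142 CPM with PDGF and 95.9, 97.3 and 89.6 CPM without PDGF. PDGF raised it 1.44-fold (edgeR adjusted p = 2.55e-07) and cycloheximide a further 1.32-fold (edgeR adjusted p = 3.82e-05). The rapamycin libraries overlapped those with PDGF, and the change of -0.16 ± 0.084 on the log2 scale was not called (edgeR adjusted p = 0.149); it became -0.29 and passed the test under library-size scaling (edgeR adjusted p = 0.00368). *Srebf1*, for the SREBP1 proteins of fatty acid synthesis, averaged 7.73 reads per library, with 1.56, 3.73 and 1.83 CPM in TerminaTOR cells and 0.827, 2.27 and 0.960 CPM in control cells under cycloheximide. It had 0.557, 2.46 and 0.713 CPM with rapamycin and PDGF, 1.93, 0.258 and 2.69 CPM with PDGF and 1.09, 1.09 and 3.37 CPM without PDGF. Libraries of a group differed by several fold, and no comparison was called.

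*Scap*, the escort, ran between 146 ± 11.9 CPM with rapamycin and PDGF and 182 ± 13.8 CPM without PDGF (SD, n = 3 each), and was called in none of the 4 main comparisons. *Mbtps2*, the site-2 protease that frees SREBP from the membrane, was lower with cycloheximide and PDGF (50.1 ± 2.68 CPM) than with PDGF (76.8 ± 2.99 CPM, SD, n = 3 each), by 0.62 ± 0.11 on the log2 scale (edgeR adjusted p = 6.85e-06). *Mbtps1*, the site-1 protease that makes the first cut, fell with PDGF (-0.60 ± 0.20, edgeR adjusted p = 0.0114) and with cycloheximide (-0.56 ± 0.21, edgeR adjusted p = 0.0301). Both calls rest on reads specific to intron-retaining transcripts. The PDGF call was lost without PDGF replicate 2 or unstimulated replicate 2, and the cycloheximide call without PDGF replicate 3 or cycloheximide replicate 1 or 2.

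**Figure D4:**
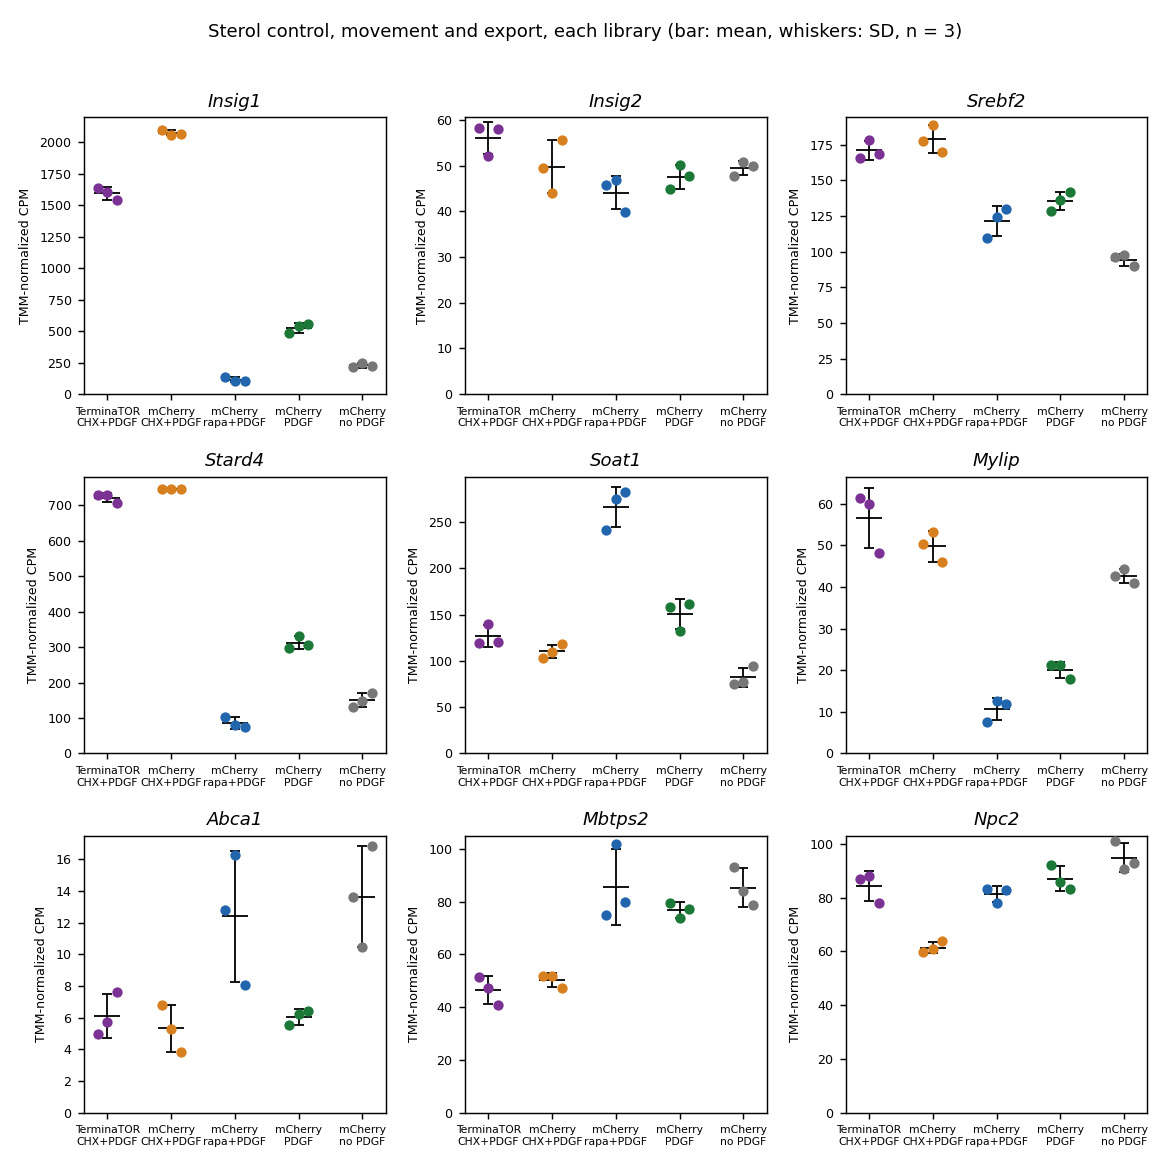
TMM-normalized CPM of 9 genes of sterol control, movement and export in each library (points), with the group mean and SD (n = 3), on linear axes from 0. *Insig1* and *Stard4* are lowest with rapamycin and PDGF and highest with cycloheximide, *Insig2* lies between 39.9 and 58.2 CPM in all libraries, and *Soat1* is highest with rapamycin and PDGF.

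The promoters of 5 members are printed to stand beside their RNA values. *Insig1* and *Cyp51* were lowest with rapamycin, *Insig2* was not called, and *Soat1* rose with rapamycin. *Hmgcs1* is the only member in which the exact string used for the sterol regulatory element was found. Sequences are from RefSeq on GRCm38.p6, 5′ to 3′ on the strand of the gene, from the 250 bases before the start site, without bases that GENCODE places in an exon. Capitals mark any match, on either strand, to TCACNCCAC (a form of the sterol regulatory element bound by SREBP), CCAAT (NF-Y), GGGCGG (Sp1) or CACGTG (the E-box). Only exact strings were searched, so sites that differ from them are missed, and no match does not mean no site.
Insig1, chr5:28071162-28071362, plus strand: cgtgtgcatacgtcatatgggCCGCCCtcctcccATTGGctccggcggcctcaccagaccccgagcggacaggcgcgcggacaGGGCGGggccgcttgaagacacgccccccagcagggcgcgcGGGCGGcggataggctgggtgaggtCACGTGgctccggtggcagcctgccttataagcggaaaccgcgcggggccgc
Hmgcs1, chr13:119690101-119690350, plus strand: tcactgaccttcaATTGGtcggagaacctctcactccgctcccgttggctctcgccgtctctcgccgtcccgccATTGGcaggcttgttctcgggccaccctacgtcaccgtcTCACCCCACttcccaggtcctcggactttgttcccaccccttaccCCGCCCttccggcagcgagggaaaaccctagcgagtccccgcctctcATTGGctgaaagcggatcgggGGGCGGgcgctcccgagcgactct
Cyp51, chr5:4104747-4104947, minus strand: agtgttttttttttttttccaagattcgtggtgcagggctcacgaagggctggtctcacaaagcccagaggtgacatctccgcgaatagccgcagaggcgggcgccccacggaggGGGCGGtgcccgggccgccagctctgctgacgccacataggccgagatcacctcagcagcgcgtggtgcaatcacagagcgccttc
Insig2, chr1:121332590-121332839, minus strand: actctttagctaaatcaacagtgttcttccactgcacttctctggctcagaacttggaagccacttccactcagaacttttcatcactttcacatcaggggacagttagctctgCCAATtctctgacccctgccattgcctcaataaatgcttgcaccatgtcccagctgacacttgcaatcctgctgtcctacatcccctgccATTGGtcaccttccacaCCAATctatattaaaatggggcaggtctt
Soat1, chr1:156474332-156474578, minus strand: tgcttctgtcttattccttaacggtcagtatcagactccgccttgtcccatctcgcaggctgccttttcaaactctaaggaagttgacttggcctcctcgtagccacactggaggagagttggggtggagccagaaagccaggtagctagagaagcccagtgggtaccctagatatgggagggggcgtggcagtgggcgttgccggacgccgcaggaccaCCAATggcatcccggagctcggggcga
In the printed stretches *Hmgcs1* holds 1 TCACNCCAC, which begins 137 bases before the start site, with 3 CCAAT and 2 GGGCGG. *Insig1* holds 1 CCAAT, 3 GGGCGG and 1 CACGTG, and *Cyp51* 1 GGGCGG. *Insig2* holds 3 CCAAT and *Soat1* 1, neither with any of the other motifs in the printed stretch. Over whole windows, 250 bases before to 50 after each start site, the 30 members with an entry have 39 windows. Beyond the printed stretches, the window of *Soat1* holds 1 GGGCGG and that of *Cyp51* 1 CCAAT. Each *Insig2* window at a further start site holds 1 GGGCGG. The whole *Hmgcs1* window holds 4 CCAAT and 3 GGGCGG. TCACNCCAC was found in 1 of these 39 and in 1.24% of 32851 windows of all genes. CCAAT was found in 24 of the 39 and in 37.4% of all windows, GGGCGG in 29 and 35.7%, and CACGTG in 7 and 7.15%. The shorter CACNCCAC, searched after the data were seen, was found in 3 of the 39, those of *Acat2*, *Hmgcs1* and *Insig1*, and in 6.24% of all windows; in *Insig1* it lies outside the printed stretch. Members with several start sites have several windows, and TCACNCCAC contains CACNCCAC, so every match to the first is one to the second. No entry was found for *Abcg1*, *Sqle*, *Fdft1*, *Fdps*, *Npc1* and *Stard4*.

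Of the genes that move and store sterol, *Stard4* had its 5 group means in the same order as *Insig1*, and *Soat1* did not. *Stard4* encodes a cytosolic sterol carrier and had 729.7, 729.9 and 706 CPM in TerminaTOR cells and 746, 746 and 747 CPM in control cells under cycloheximide. It had 104, 79.4 and 74.3 CPM with rapamycin and PDGF, 299, 333 and 307 CPM with PDGF and 132, 148 and 170.4 CPM without PDGF, and these 3 groups did not overlap. It rose 2.08-fold with PDGF (edgeR adjusted p = 1.72e-15), was 3.65-fold lower when rapamycin was added (edgeR adjusted p = 8.84e-23) and 2.39-fold higher when cycloheximide was added (edgeR adjusted p = 9.35e-19). The TerminaTOR change of -0.047 ± 0.073 did not pass the test (edgeR adjusted p = 0.825, 95% interval -0.19 to 0.095).

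*Soat1* encodes the acyltransferase that turns free cholesterol into esters for storage. It had 241, 275 and 283 CPM with rapamycin and PDGF, 158, 132 and 162 CPM with PDGF and 74.9, 77.4 and 94.1 CPM without, with no overlap. It thus rose with PDGF (0.88 ± 0.091 SE on the log2 scale, edgeR adjusted p = 8.14e-13) and again with rapamycin (0.82 ± 0.087, edgeR adjusted p = 2.16e-12), reaching 3.24-fold over unstimulated cells (edgeR adjusted p = 1.3e-26). Under cycloheximide it had 119, 140.2 and 121 CPM in TerminaTOR cells and 103, 109 and 118 CPM in control cells, the control cells lying 1.37-fold below PDGF alone (edgeR adjusted p = 2.61e-05). *Npc2* and *Npc1* encode the pair that passes cholesterol out of the lysosome, and both fell with cycloheximide, by 0.50 ± 0.10 (edgeR adjusted p = 2.76e-05) and 0.72 ± 0.12 (edgeR adjusted p = 1.03e-06) on the log2 scale. *Npc2* rose 1.38-fold with TerminaTOR, to 84.2 ± 5.58 CPM, against 61.4 ± 2.16 CPM in control cells under cycloheximide (SD, n = 3 each; edgeR adjusted p = 0.00117), and this call held when each library in turn was left out. *Npc1* fell with rapamycin by 0.37 ± 0.12 (edgeR adjusted p = 0.0123), a call lost without PDGF replicate 2 or rapamycin replicate 1.

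*Abca1* and *Mylip*, the tested members of the export and receptor-decay group, both fell with PDGF, where 16.9% of all genes did. LXR turns both on. Of 7 tested genes of oxysterol metabolism and LXR partners, none of them a member, 2 rose and 2 fell with PDGF. *Arl4c*, a known LXR target, was among those that rose (3.22-fold, edgeR adjusted p = 4.97e-23). The part of LXR in these changes was not tested. *Abca1* encodes the pump that loads cholesterol onto apolipoprotein particles, and *Mylip* a ubiquitin ligase that marks lipoprotein receptors for decay. *Abca1* had 12.8, 16.3 and 8.08 CPM with rapamycin and PDGF, 5.51, 6.20 and 6.42 CPM with PDGF and 13.6, 10.5 and 16.8 CPM without. PDGF lowered it 2.25-fold (edgeR adjusted p = 0.000475), and rapamycin with PDGF was 2.01-fold above PDGF (edgeR adjusted p = 0.00476), a call lost without rapamycin replicate 2 (edgeR adjusted p = 0.0692). The rapamycin and unstimulated libraries overlapped. Under cycloheximide it had 4.996, 5.70 and 7.63 CPM in TerminaTOR cells and 6.83, 5.29 and 3.84 CPM in control cells, also overlapping.

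*Mylip* had 7.52, 12.6 and 11.9 CPM with rapamycin and PDGF, 21.2, 21.2 and 17.8 CPM with PDGF and 42.7, 44.3 and 41.0 CPM without, 3 separate groups. Its fall was 1.09 ± 0.15 SE on the log2 scale with PDGF (edgeR adjusted p = 7.45e-09) and a further 0.90 ± 0.19 with rapamycin (edgeR adjusted p = 7.79e-05), to 3.99-fold below unstimulated cells (edgeR adjusted p = 8.39e-17). Under cycloheximide it had 61.4, 60.0 and 48.2 CPM in TerminaTOR cells and 50.3, 53.2 and 45.9 CPM in control cells, and the control cells were 2.49-fold above PDGF alone (edgeR adjusted p = 2.12e-11). Against unstimulated cells these control cells differed by 0.22 ± 0.14 (edgeR adjusted p = 0.179, 95% interval -0.044 to 0.49).

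Both drug groups were also set against unstimulated cells; rapamycin and cycloheximide were not compared with each other. With rapamycin and PDGF 11 members were lower than without PDGF and 5 higher, against 25.5% and 27.8% of all genes, and under library-size scaling the counts were 16 and 2. Without unstimulated replicate 1 the higher members were 3. The lower ones included *Insig1*, *Stard4* and 6 enzymes, from -1.59 for *Fdps* to -0.29 for *Cyp51* on the log2 scale. The 5 higher ones were *Soat1*, *Srebf2* and the enzyme genes *Msmo1*, *Sqle* and *Idi1*, so the enzymes did not all move the same way. With cycloheximide and PDGF 15 members were higher than without PDGF and 6 lower, against 24.6% and 22.8% of all genes. They included 11 of 13 tested enzymes, with *Insig1* 9.09-fold, *Pmvk* 8.32-fold and *Idi1* 6.60-fold higher, and *Abca1*, *Mbtps1*, *Mbtps2*, *Npc1*, *Npc2* and *Scap* were the lower ones. These 2 comparisons share the unstimulated libraries with each other and with the PDGF comparison.

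For 12 of the 26 members the change with rapamycin was lower than the change in TerminaTOR cells. The difference between the 2 changes, rapamycin with PDGF over PDGF minus TerminaTOR over control under cycloheximide, uses 4 separate groups and was tested in the same fit. It was negative and passed the test for 12 members and positive for 2, against 12.4% and 11.6% of all genes. The 8 enzymes among the 12 were *Idi1*, *Fdps*, *Ggps1*, *Lss*, *Cyp51*, *Nsdhl*, *Hsd17b7* and *Sc5d*, with differences from -2.38 in *Fdps* to -0.50 in *Nsdhl* on the log2 scale. *Insig1* differed by -1.83 ± 0.10 SE (edgeR adjusted p = 3.57e-22); it was 1.30-fold lower in TerminaTOR cells than in their controls and 4.64-fold lower with rapamycin and PDGF than with PDGF. *Stard4* differed by -1.82 ± 0.11 (edgeR adjusted p = 8.35e-18), *Mylip* by -1.10 ± 0.23 (edgeR adjusted p = 0.000132) and *Npc2* by -0.56 ± 0.14 (edgeR adjusted p = 0.00152). For *Ggps1* and *Npc2* the change with rapamycin was itself not called, and it was in TerminaTOR cells that they rose. The positive differences were those of *Soat1*, 0.62 ± 0.12 (edgeR adjusted p = 6.77e-05), and of *Mbtps1*, 0.96 ± 0.31 (edgeR adjusted p = 0.0146), and the call for *Mbtps1* was lost without control replicate 3 or TerminaTOR replicate 3 under cycloheximide. *Msmo1* fell in both comparisons, and its difference was not called (-0.35 ± 0.33, 95% interval -0.98 to 0.29). Rapamycin was given without cycloheximide and TerminaTOR with it, so the place of inhibition, the cell line and the block of translation cannot be told apart in this difference.

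**Figure D5:**
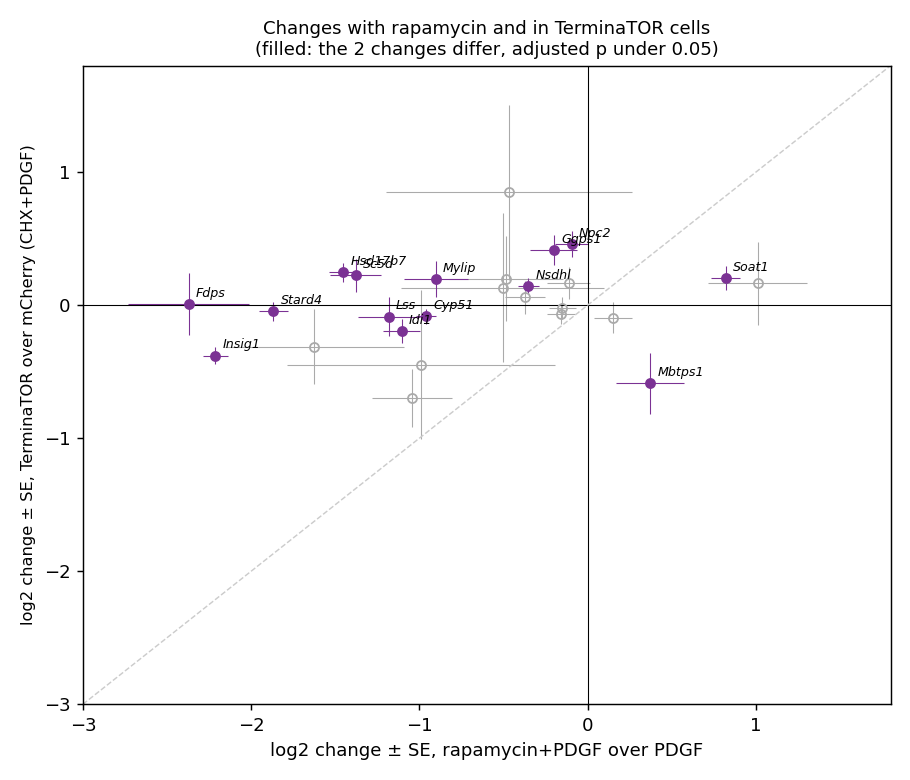
Log2 change with SE for rapamycin with PDGF over PDGF (horizontal) against TerminaTOR over control under cycloheximide (vertical) for the 26 tested members; the dashed line marks equal changes. Filled, named points are the 14 members whose 2 changes differ by the test, and in 12 of them the rapamycin change is the lower of the 2. Of the 14, *Npc2*, *Ggps1* and *Hsd17b7* were called higher and *Insig1* lower in TerminaTOR cells.

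Other genes of lipid supply were counted from lists of the wider pathway. Of all genes 20.1% rose and 16.9% fell with PDGF, 16.3% rose and 16.1% fell with rapamycin, 21% rose and 19.6% fell with cycloheximide, and 2.35% rose and 2.57% fell with TerminaTOR, and a list's count near these shares shows nothing about the list. Of 11 tested SREBP targets of fatty acid synthesis, 7 fell and 1 rose with rapamycin, with a median log2 change of -0.74, and 3 rose and 1 fell with PDGF. *Scd2*, a fatty acid desaturase, averaged 994 ± 24.8 CPM with rapamycin and PDGF and 4104 ± 194 CPM with PDGF (SD, n = 3 each; log2 change -2.05 ± 0.053, edgeR adjusted p = 1.65e-44). *Elovl6*, a fatty acid elongase, averaged 62.0 ± 7.34 and 151 ± 11.9 CPM in the same groups (log2 change -1.28 ± 0.10, edgeR adjusted p = 1.75e-18). Of the 11, 4 rose and 3 fell with cycloheximide and none was called with TerminaTOR, where 2 had an unadjusted p under 0.05. Among 20 tested genes of sterol uptake, transport and storage, 8 fell and 1 rose with rapamycin, including the lipoprotein receptor gene *Lrp8* (log2 change -1.54 ± 0.16, edgeR adjusted p = 2.25e-12) and *Tmem97* (-1.01 ± 0.090, edgeR adjusted p = 1.41e-15). With PDGF 5 of these 20 rose and 2 fell, with cycloheximide 3 rose and 8 fell, and with TerminaTOR only *Scarb2* was called, lower by 0.28 ± 0.081 (edgeR adjusted p = 0.0276). Among 17 tested regulators of sterol sensing and SREBP, 5 rose and 1 fell with PDGF, 2 rose and 5 fell with rapamycin, 3 rose and 5 fell with cycloheximide, and 1 rose and 2 fell with TerminaTOR. *Paqr3*, a Golgi protein that anchors the SCAP and SREBP complex, rose with PDGF (2.07 ± 0.27, edgeR adjusted p = 1.74e-09) and fell with rapamycin (-0.95 ± 0.25, edgeR adjusted p = 0.00201) and with cycloheximide (-2.70 ± 0.29, edgeR adjusted p = 4.6e-12). Of 15 tested further sterol and isoprenoid enzymes, 2 rose with PDGF, among them *Aacs*, acetoacetyl-CoA synthetase (1.01 ± 0.070, edgeR adjusted p = 9.62e-21), 2 rose and 4 fell with rapamycin, 5 rose and 1 fell with cycloheximide, and 1 fell with TerminaTOR. Of 7 tested genes of oxysterol metabolism and LXR partners, 2 rose, *Arl4c* among them, and 2 fell with PDGF, 2 rose and 1 fell with rapamycin, 1 rose and 2 fell with cycloheximide, and 1, *Arl4c*, fell with TerminaTOR (-0.36 ± 0.10, edgeR adjusted p = 0.0233).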

How the data were processed

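The authors deposited whole-number read counts per mouse transcript for 15 libraries, not normalized. Tools listed in the submitters' processing notes are HISAT2 2.2.1, HTSeq 0.9.1 and R 4.1.0, with the build hg38, a human assembly; the sources used here do not give the mouse build aligned to or whether strand was used. Identifiers were matched to GENCODE M21 on GRCm38 after removal of the version, and the 910 of 142446 left unmatched held 0.0309% of counts and were dropped before summing per gene. A read shared by transcripts is dropped by HTSeq's default, so a shift between transcripts can change a sum. All 15 libraries entered a fit in edgeR 4.0.16 (R 4.3.3) with a mean per group, TMM scaling, filterByExpr and the robust quasi-likelihood F test, which leaves 10 degrees of freedom for the spread, and adjustment by Benjamini-Hochberg covered 10603 genes. The method was tested on simulated data. SE is the absolute log2 change over the square root of F, and it may understate the error of genes with few reads. Total counts of 3466202 to 6777780 per library limit the precision of members with under about 10 reads.

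Values in every library are given for members called in a main comparison with a log2 change of at least 1 in size, for both SREBP and both INSIG genes, and for *Cyp51* and *Soat1*, which were added after their values were seen; of the other lists, up to 3 called genes per comparison with a mean of at least 10 reads could be named. The members and lists were chosen with earlier results of these data known. Alternatives were library-size scaling, the size factors of DESeq2 1.42.0, no filter, DESeq2, limma-voom (limma 3.58.1), the replicate number as a block, the most abundant transcript of each gene, the compared groups alone, and leaving out each library. Promoters are RefSeq windows on GRCm38.p6. No 2 libraries of a group agreed within counting noise, so all were kept.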

Additional observations from a re-analysis of the deposited data

How the results depend on the processing

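The counts of members called kept within 1.5 times of the reported ones except as follows. Library-size scaling gave 8 members lower with PDGF (4 reported), 1 lower with TerminaTOR (2 reported) and 2 higher for rapamycin with PDGF against no PDGF (5 reported). Without a filter, and on the most abundant transcript of each gene, 1 member was lower with TerminaTOR. Rapamycin with PDGF against no PDGF gave 3 higher on the most abundant transcript, and 3 with the compared groups fitted alone. The cause was not tested. Over all genes, library-size scaling moved the median log2 change to -0.256 with PDGF, -0.356 for rapamycin and -0.403 for cycloheximide against no PDGF, and gave 1379 genes higher and 3111 lower with PDGF (2128 and 1794 reported). It gave 1918 and 4153 for rapamycin with PDGF (2948 and 2708 reported), and 1615 and 4400 for cycloheximide with PDGF (2611 and 2417 reported), both against no PDGF. With TerminaTOR, 169 genes were lower without a filter (273 reported) and 397 higher with the compared groups alone (249 reported).

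Against no PDGF, library-size scaling turned the sign of *Idi1* (-0.0065), *Ggps1* (-0.33) and *Srebf2* (-0.013) for rapamycin with PDGF, and of *Nsdhl* (-0.26) and *Insig2* (-0.38) for cycloheximide with PDGF.

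Leaving out each library in turn gave 9 to 10 members higher and 2 to 4 lower with PDGF, 1 to 2 higher and 12 to 13 lower with rapamycin, 12 to 13 higher and 4 to 5 lower with cycloheximide, and 1 to 2 higher and 1 lower with TerminaTOR. It gave 3 to 5 higher and 10 to 12 lower for rapamycin with PDGF, and 15 to 16 higher and 5 to 6 lower for cycloheximide with PDGF, against no PDGF. For the difference between the rapamycin and TerminaTOR changes it gave 1 to 2 higher and 12 to 13 lower.

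Deviations of libraries with the same replicate number correlated at -0.00149 to 0.076, and those with different numbers at -0.0795 to 0.0616. Correlations this small do not settle whether the numbers pair the samples. With the replicate number as a block the counts of members called were the reported ones in every comparison, for example 10 and 4 with PDGF and 3 and 2 with TerminaTOR. Depth limits *Hmgcs1*, *Srebf1* and *Lbr*, with a mean under 10 reads per library, whose intervals span over 2 log2 units in each main comparison.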
